A study of Mus musculus with 16 samples.

Results

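Retinoid binding and metabolism was examined in 2 fat depots of the mouse, the subcutaneous white depot (sWAT) and the brown depot between the shoulder blades (BAT), through 9 genes, Rbp4, Rbp7, Stra6, Rdh10, Aldh1a1, Aldh1a2, Aldh1a3, Crabp1 and Crabp2. The genes were chosen by name, and their values came from every probe set of the array that the platform annotation assigns to 1 of these symbols alone. All 9 were measured, by 12 of 45101 probe sets, and they were 9 of 18194 genes with such a probe set. Rdh10 had 2 probe sets, Aldh1a3 had 3 and each of the others had 1.

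Vitamin A circulates as retinol bound to a carrier protein, enters cells with or without a receptor, and is held in the cytosol by small binding proteins or stored as retinyl ester. It is oxidised first to retinaldehyde and then, irreversibly, to retinoic acid, which binds nuclear receptors of the RAR family paired with RXR partners and so changes transcription. Adipose tissue stores retinyl esters and secretes the retinol carrier, and retinoic acid is a known inducer of the brown fat uncoupling protein gene Ucp1.

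Both groups were untreated LACA (Laboratory Animal Centre A-strain) mice of 25 ± 3 g on standard chow, all labelled male. Their age is not given in the sources used here, and no transgene or drug was involved. The arrays numbered 16, with 4 replicates per tissue and 2 arrays per replicate, whose values were averaged. By the methods 4 mice each gave both depots, while the labels do not tie a replicate number to an animal.

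The values are log2 values that the authors had centred, probe set by probe set, on the median of the 16 arrays. They give differences between samples, and not the level of a gene, so levels of different genes could not be ranked, and a probe set at background on all arrays could not be told from an expressed one. Differences are given as BAT minus sWAT on the log2 scale ± the standard error from limma, with n = 4 per tissue, and a gene was called at an adjusted p under 0.05 (Benjamini-Hochberg over 18194 genes).

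Some libraries stood apart from their labels or from the rest. Xist, the transcript of the inactive X chromosome, read 5.74, 6.26 and 6.36 for BAT replicates 1 to 3 but -0.26 for BAT replicate 4, and sWAT ranged from -0.27 to -0.11. The Y-linked gene Eif2s3y ran the other way, with -2.94, -3.16 and -3.21 for BAT replicates 1 to 3 and 0.40 for BAT replicate 4. BAT replicates 1 to 3 therefore did not match their label, and sex and tissue cannot be told apart in them. In Xist they also matched no sWAT replicate, so the methods' statement of shared animals is not borne out for them. Differences are therefore also given for BAT replicate 4 alone against the 4 sWAT replicates, where its spread is assumed to be that of sWAT. Gapdh and Actb have probe sets at both ends of their transcripts, and 2 arrays gave low values at the 5' end against the 3' end. This gap was -4.79 for sWAT replicate 3 (first array) and -3.56 for BAT replicate 1 (second array), where the other 14 arrays lay between -1.23 and 0.46.

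The tissue labels were borne out by 10 of 10 brown adipocyte markers, which were higher in BAT. Other cell types also moved with tissue. All 14 skeletal muscle fibre markers were higher in BAT, with list means of 1.96 to 3.65 in BAT against -1.98 to -1.67 in sWAT. All 11 B cell, all 11 T cell and all 6 lymph node stroma markers were lower in BAT, and the B cell list means were 1.83 to 2.52 in sWAT against -2.11 to -1.67 in BAT. Also lower were 7 of 10 white adipocyte, 7 of 12 adipose progenitor and fibroblast and 9 of 13 macrophage and dendritic cell markers. The fibroblast and macrophage lists each held 1 marker that was higher. Of 8 adipocyte markers 4 were higher (median difference 0.55), as were 3 of 7 Schwann cell and 4 of 11 skin and hair follicle markers, with 0 lower in each. Of 12 epithelium and mammary duct markers 4 were higher and 2 lower. Of 10 mesothelium markers 2 were higher and 1 lower, and of 12 blood endothelium markers 2 were higher and 0 lower. Of all genes, 21.0% were higher and 17.5% lower. In whole tissue, fewer cells of a type and less RNA per cell cannot be told apart. Centred values also do not show which markers are near 0.

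Of the 9 retinoid genes, only Crabp2 passed the test, as higher in BAT, and none was called lower by limma (0 also at an unadjusted p under 0.05). Of all genes, 38.4% were called, 21.0% as higher and 17.5% as lower in BAT. The median difference of the 9 genes was 0.14, beside 0.15 over all genes. None of their 12 probe sets was called by limma when p was adjusted over all 45101 probe sets, of which 32.4% were called, and 1 had an unadjusted p under 0.05. The standard error of the 9 genes had a median of 0.21, against 0.14 over all genes, so that smaller differences could be called for a typical gene than for these.

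**Figure D1:**
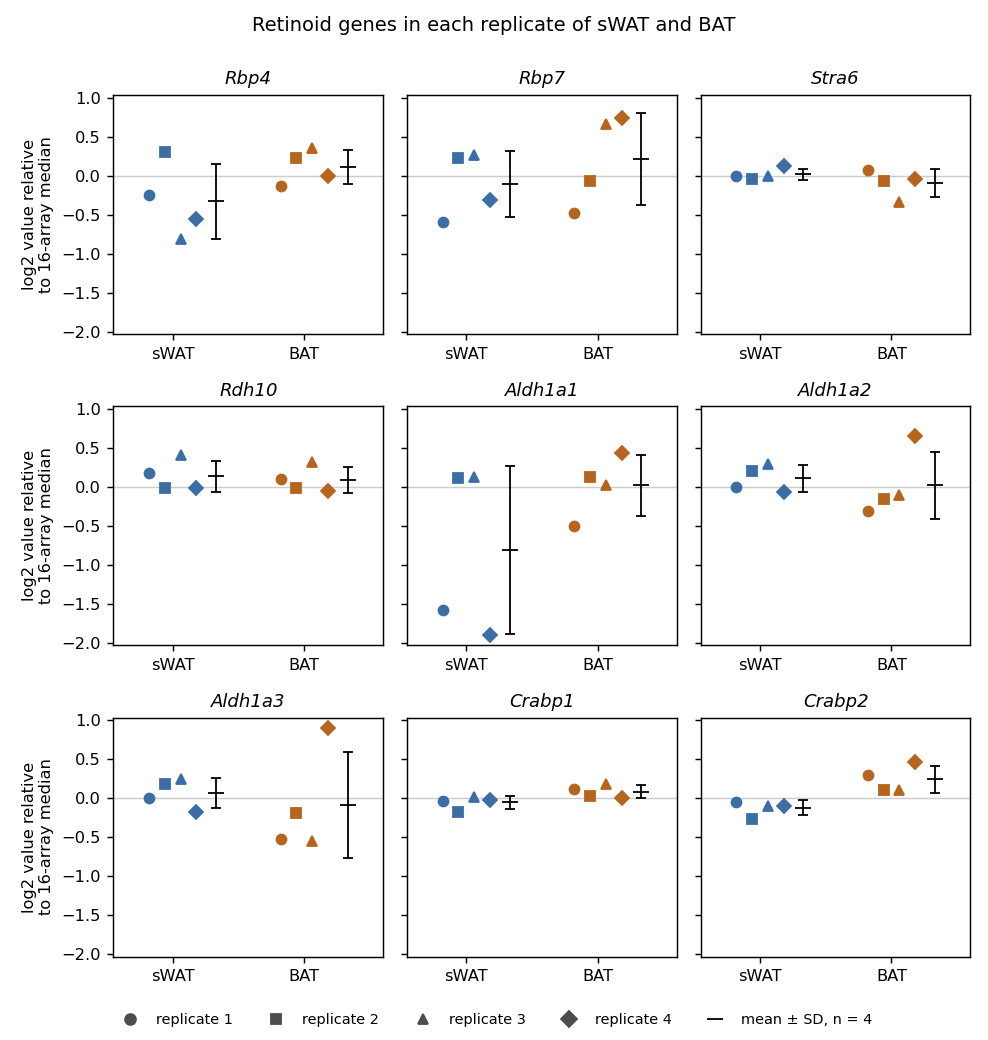
Log2 value of each of the 9 retinoid genes relative to its median over 16 arrays (vertical axis), for replicates 1 to 4 of sWAT (blue) and BAT (brown), with the mean and SD of 4 replicates as a bar. Only for Crabp2 do the tissues not overlap, Aldh1a1 is low in sWAT replicates 1 and 4, and Aldh1a2 and Aldh1a3 are high in BAT replicate 4.

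Rbp4 encodes the protein that carries retinol in blood. Its values were -0.24, 0.31, -0.81 and -0.55 in sWAT replicates 1 to 4 and -0.13, 0.23, 0.36 and 0.00 in BAT replicates 1 to 4. The tissues overlapped, since sWAT replicate 2 was above 3 of the 4 BAT replicates. The difference was 0.44 ± 0.21, with a 95% interval of -0.06 to 0.94 and an adjusted p of 0.138. It was 0.20 without replicate 3, 0.15 with the second arrays alone and 0.32 for BAT replicate 4 alone, none of them called. Both arrays of low 5' signal bore on it, because the arrays of sWAT replicate 3 read -1.24 and -0.39 and those of BAT replicate 1 read 0.39 and -0.64. Without these 2 arrays the difference was 0.46 and was called, with an adjusted p of 0.043, in a fit that called 49.2% of all genes.

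Rbp7 encodes a cytosolic retinol-binding protein found in adipose tissue. Its values were -0.59, 0.23, 0.27 and -0.30 in sWAT and -0.48, -0.07, 0.66 and 0.74 in BAT. BAT replicates 3 and 4 were above every sWAT replicate, and BAT replicates 1 and 2 lay within the sWAT range. The difference was 0.31 ± 0.21 (95% interval -0.19 to 0.82, adjusted p = 0.268). It was 0.070 without replicate 4, 0.52 without replicate 2 and 0.84 for BAT replicate 4 alone, none of them called. The difference between tissues of Rbp4 minus Rbp7 was 0.13, with an exact two-sided permutation p of 0.8.

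Stra6 encodes a membrane receptor that takes retinol from its blood carrier into the cell. Its values were -0.00, -0.04, 0.00 and 0.13 in sWAT and 0.08, -0.06, -0.33 and -0.04 in BAT. All but BAT replicate 3 lay within a narrow band around 0, and the SD among sWAT replicates was 0.071, smaller than in most genes. The difference was -0.11 ± 0.12, with a 95% interval of -0.41 to 0.18 and an adjusted p of 0.483. It was -0.037 without replicate 3, -0.18 without replicate 1 and -0.060 for BAT replicate 4 alone, none of them called.

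Rdh10 encodes the dehydrogenase that oxidises retinol to retinaldehyde, the first step towards retinoic acid. The mean of its probe sets was 0.18, -0.01, 0.41 and -0.01 in sWAT and 0.11, -0.01, 0.32 and -0.05 in BAT, so that replicate 3 was the highest in both tissues. In sWAT that came from the array of low 5' signal, which read 0.93 and 0.80 for the probe sets where the second array read -0.040 and -0.056. The difference was -0.05 ± 0.11 (95% interval -0.31 to 0.21, adjusted p = 0.727), and for BAT replicate 4 alone it was -0.20, not called. The probe sets differed in sign, with 0.09 ± 0.13 for 1426968_a_at and -0.19 ± 0.13 for 1460632_at, and neither was called.

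Aldh1a1, Aldh1a2 and Aldh1a3 encode retinaldehyde dehydrogenases, which make retinoic acid. Aldh1a1, an abundant form in many adult tissues, had the widest spread of the 9 genes in sWAT. Its values were -1.57, 0.12, 0.13 and -1.89 in sWAT and -0.50, 0.13, 0.03 and 0.44 in BAT. sWAT replicates 1 and 4 were low and sWAT replicates 2 and 3 lay among the BAT values. The SD of 1.08 among sWAT replicates was larger than in 99.7% of genes. Both arrays of the low replicates gave it, at -1.48 and -1.66 for sWAT replicate 1 and at -1.80 and -1.98 for sWAT replicate 4. The difference between the tissues was 0.83 ± 0.39, with a 95% interval of -0.09 to 1.74 and an adjusted p of 0.129. Without replicate 4 it was 0.33, and for BAT replicate 4 alone it was 1.24, neither of them called. It was called in 1 of 16 alternatives, that with each array scaled to the 3' probe sets of Gapdh and Actb, at 0.85 and an adjusted p of 0.034, where 20.7% of all genes were called.

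Aldh1a2, the main source of retinoic acid in the early embryo, was at 0.00, 0.20, 0.30 and -0.06 in sWAT and at -0.31, -0.15, -0.10 and 0.66 in BAT. BAT replicates 1 to 3 were below every sWAT replicate and BAT replicate 4 was above every sWAT replicate. The margin below was narrow, at -0.10 in BAT replicate 3 against -0.06 in sWAT replicate 4. The 2 arrays of BAT replicate 2 read -0.46 and 0.16, so the order did not hold on single arrays. The difference was -0.09 ± 0.21 (95% interval -0.58 to 0.40, adjusted p = 0.749). Left without replicate 4 it was -0.36, and for BAT replicate 4 alone it was 0.54, neither of them called.

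Aldh1a3 showed the same arrangement in the mean of its 3 probe sets, but of the single probe sets only 1448789_at did. In the mean the margin was again narrow, at -0.19 in BAT replicate 2 against -0.18 in sWAT replicate 4. The mean of its 3 probe sets was 0.00, 0.18, 0.25 and -0.18 in sWAT and -0.52, -0.19, -0.55 and 0.90 in BAT. The difference was -0.15 ± 0.30, with a 95% interval of -0.85 to 0.55 and an adjusted p of 0.693. Without replicate 4 of either tissue Aldh1a3 was called lower in BAT, with a difference of -0.56 and an adjusted p of 0.041, in a fit that called 31.1% of all genes. BAT replicate 4 alone was called higher than the 4 sWAT replicates, by 0.83 with an adjusted p of 0.034, in a fit that called 19.8% of all genes. The call and its direction thus rest on which BAT replicates are taken.

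The probe sets of Aldh1a3 were not alike. The probe set 1448789_at had the wider range, with 0.32, 0.72, 0.71 and -0.33 in sWAT and -1.94, -0.78, -1.41 and 1.49 in BAT. Its difference was -1.02 ± 0.64, not called, and without replicate 4 it was -1.96 with an adjusted p of 0.001, where 26.2% of all probe sets were called. With each array scaled to 3' Gapdh and Actb it was called too, at -0.99 with an adjusted p of 0.017, where 19.8% of all probe sets were called. The others, 1417642_at and 1427395_a_at, differed by 0.30 ± 0.17 and 0.26 ± 0.17, in the opposite direction and also not called. In both, BAT replicates 1 and 2 were above every sWAT replicate. All 3 had their highest value in BAT replicate 4, where 1417642_at was at 0.62 and 1427395_a_at at 0.58.

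**Figure D2:**
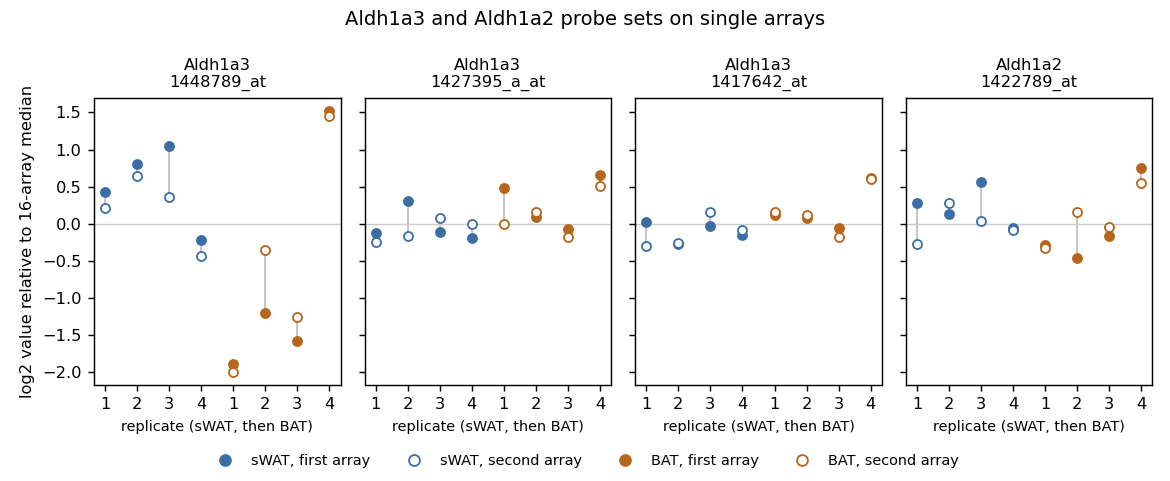
Log2 values relative to the 16-array median (vertical axis) of the 3 Aldh1a3 probe sets and the Aldh1a2 probe set on each array, by replicate number (horizontal axis, sWAT then BAT), with the first array filled, the second open and a line joining the 2 arrays of a replicate. Both arrays of BAT replicate 4 are above 0.5 in every panel, and in 1448789_at BAT replicates 1 to 3 lie between -1.94 and -0.78 on average.

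All 3 dehydrogenase genes were highest in BAT replicate 4 among the BAT replicates, as were 5 of the 9 retinoid genes and 28.9% of all genes. Sex-linked genes set this replicate apart as well. Xist read -0.26 there, against 5.74 to 6.36 in BAT replicates 1 to 3, and Eif2s3y read 0.40, against -3.21 to -2.94. Markers of several cell types did so too. Of 12 measured adipose progenitor and fibroblast markers, 11 were highest in BAT replicate 4, where the list mean was 0.56 against -1.43, -0.69 and -0.79 in BAT replicates 1 to 3. In sWAT the list means were 0.07 to 0.96. Of 13 macrophage and dendritic cell markers 11 were highest there (list mean 0.04, against -0.99 to -0.38), and so were 8 of 10 white adipocyte markers (0.06, against -1.17 to -0.96), 8 of 11 T cell markers (-1.02, against -1.81 to -1.38) and 10 of 14 muscle fibre markers (3.65, against 1.96 to 3.04). Of 10 brown adipocyte markers, 9 were lowest there, with a list mean of 1.62 against 3.1 to 3.29. The part of sex or of these cell types in the Aldh1a2 and Aldh1a3 values was not tested, and they cannot be told apart here.

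Crabp1 and Crabp2 encode cytosolic proteins that bind retinoic acid, and Crabp2 is known to deliver it to the nuclear receptors. Crabp1 was at -0.03, -0.17, 0.02 and -0.02 in sWAT and at 0.12, 0.03, 0.18 and 0.01 in BAT. The tissues overlapped narrowly, and the difference was 0.14 ± 0.11 (95% interval -0.13 to 0.40, adjusted p = 0.345), or 0.060 and not called for BAT replicate 4 alone. Crabp2 was at -0.04, -0.26, -0.09 and -0.09 in sWAT and at 0.29, 0.10, 0.11 and 0.47 in BAT. Every BAT replicate was above every sWAT replicate, which was the case for 28.0% of all genes. Crabp2 was 0.37 ± 0.12 higher in BAT, or 1.29-fold, with a 95% interval of 0.08 to 0.65 and an adjusted p of 0.049. Differences of about this size were common. The median was 0.34 for the skin and hair follicle markers, 0.34 for the epithelium and mammary duct markers and 0.33 for the mesothelium markers. Over all genes it was 0.15.

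The Crabp2 call was at the threshold. With adjustment over probe sets its single probe set had an adjusted p of 0.076. The difference stayed positive in all 15 alternatives that measured it, from 0.23 to 0.59, and was called in 6 of them. It was not called without replicate 1, 2 or 4, which gave 0.37, 0.37 and 0.30 with adjusted p of 0.095, 0.169 and 0.18. BAT replicate 4 alone gave 0.59 with an adjusted p of 0.039. With each array scaled to its median Crabp2 was at 0.30 with an adjusted p of 0.073, where 36.1% of all genes were called.

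**Figure D3:**
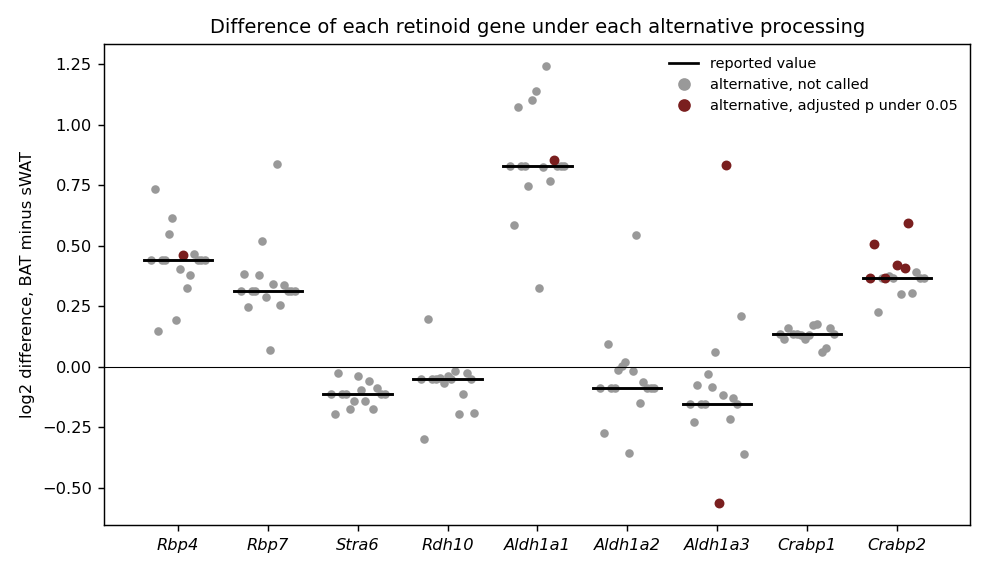
Log2 difference BAT minus sWAT (vertical axis) of each of the 9 retinoid genes as reported (black line) and under each alternative processing (points, dark red where the adjusted p was under 0.05). Rbp4, Rbp7, Aldh1a1, Crabp1 and Crabp2 stay above 0 in every alternative, Stra6 stays below 0, and Aldh1a3 is called at -0.56 and at 0.83.

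Related genes were also set against each other within each replicate, by the difference between their values, and this difference was compared between the tissues with an exact two-sided permutation test. Of 5 such pairs 0 passed, with or without adjustment, and 4 against 4 replicates allow no p below 0.0286. After adjustment over 5 pairs, a single pair at that lowest p could not pass, so the adjusted test could call little. Aldh1a1 minus Aldh1a2 was -0.91 ± 0.91 (SD) in sWAT and 0.00 ± 0.25 in BAT, a shift of 0.92 with an exact p of 0.171. Aldh1a1 minus Aldh1a3 shifted by 0.98 with an exact p of 0.114, and Aldh1a2 minus Aldh1a3 by 0.07 with an exact p of 0.657. Crabp1 minus Crabp2 was 0.07 ± 0.04 in sWAT and -0.16 ± 0.23 in BAT, a shift of -0.23 with an exact p of 0.0571. The adjusted p was 0.286 for 3 of these pairs and 0.8 for the other two.

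The genes whose values ran most like each of the 9 over the 8 replicates are given as a description, since the replicates share tissue and array. For Aldh1a2 and Aldh1a3, the latter as the mean of its unlike probe sets, each was among the 3 closest of the other, with a Pearson r of 0.96. Aldh1a1 ran closest to Dpep1 (r = 0.97), Samd4 (0.96) and Art3 (0.96), and Rbp4 to Ppp2r5b (0.97), Tnfrsf12a (0.97) and Mmp11 (0.96). Rbp7 ran closest to Igfals (0.95), Stra6 to C130036L24Rik (0.97), Rdh10 to Nkapd1 (0.95), Crabp1 to Smr3a (0.95) and Crabp2 to Tmem74 (0.98).

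Around the 9 genes, 71 of 83 other listed genes of retinoid transport, metabolism and response were measured. Of these 19 were higher in BAT (26.8%, against 21.0% of all genes), 9 were lower (12.7%, against 17.5%) and 43 were not called. Their median difference was 0.27, beside 0.15 over all genes. For BAT replicate 4 alone 12 were higher and 4 were lower, where 10.7% and 9.08% of all genes were. With each array scaled to its median 16 were higher and 12 lower, beside 17.8% and 18.3% of all genes, and with 3' Gapdh and Actb 15 and 3, beside 10.4% and 10.4%. The lists were chosen with earlier results of these data known, so a share above that of all genes is no independent result.

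Among nuclear receptors and their partners, 3 of 14 were higher in BAT and 4 were lower. These shares were 21.4% and 28.6%, beside 21.0% and 17.5% of all genes. Rarb encodes a retinoic acid receptor whose gene is itself induced by retinoic acid. It was at -0.99, -1.27, -1.16 and -1.40 in sWAT and at 1.17, 1.58, 1.0 and 1.25 in BAT, with no overlap. Rarb was 2.46 ± 0.16 higher in BAT, or 5.49-fold, with an adjusted p of 8.4e-05. Rxrg, an RXR partner, was at -0.77, -0.03, -0.44 and -0.64 in sWAT and at 0.59, 1.52, 1.48 and 1.13 in BAT, again with no overlap. Rxrg was 1.65 ± 0.14 higher, and Rarb and Rxrg were called in each of 16 alternatives, at 2.46 and 1.6 for BAT replicate 4 alone. Rxrb was 0.61 ± 0.18 higher (adjusted p = 0.032) and was called in 9 of 16 alternatives, not in those without replicate 2 (0.53) or replicate 3 (0.45), nor for BAT replicate 4 alone (0.46, adjusted p = 0.18). The receptors Rara (0.13 ± 0.11), Rarg (0.37 ± 0.14) and Rxra (0.21 ± 0.12) were not called, and for BAT replicate 4 alone they were at 0.34, 0.54 and 0.47, not called either. Rarg was called without the replicate block (adjusted p = 0.030) and without replicate 3 (0.48, adjusted p = 0.038).

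A pair of half-sites in the same direction, spaced by a few bases, is the known form of the element that RAR and RXR bind. Such pairs were searched for in RefSeq promoter windows (GRCm38.p6, 250 bases before to 50 after the start), on both strands, where a half-site was AGGTCA or its variant GGGTCA, or else AGTTCA or its own variant GGTTCA. With a spacing of 5 bases (called DR5) the pair stood in 0.0974% of 32851 windows, with 2 bases in 0.268% and with 1 base in 0.222%. Windows were found for Rbp4, Rbp7, Stra6, Aldh1a1, Aldh1a2 and Crabp1, and none of their 11 windows held a pair. Among 85 windows of 61 retinoid and pathway genes, a DR5 pair stood in Rarb and Cyp26a1, and a pair spaced by 1 base in Bco1. The 250 bases before the start of Rarb and Cyp26a1 are shown because one gene differed widely between the tissues and the other did not pass the test. They run 5' to 3' on the gene's strand, with the pair in capitals, read on the opposite strand in Cyp26a1. Rarb lies at chr14:16575477-16575726 (minus strand), with the pair 53 to 37 bases before the start, and Cyp26a1 at chr19:37697558-37697807 (plus strand), with the pair 32 to 16 bases before it.
Rarb: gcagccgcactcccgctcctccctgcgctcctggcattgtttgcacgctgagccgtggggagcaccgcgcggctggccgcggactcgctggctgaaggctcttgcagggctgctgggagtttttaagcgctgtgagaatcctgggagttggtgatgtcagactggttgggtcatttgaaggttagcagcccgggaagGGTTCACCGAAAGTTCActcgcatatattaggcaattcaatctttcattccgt
Cyp26a1: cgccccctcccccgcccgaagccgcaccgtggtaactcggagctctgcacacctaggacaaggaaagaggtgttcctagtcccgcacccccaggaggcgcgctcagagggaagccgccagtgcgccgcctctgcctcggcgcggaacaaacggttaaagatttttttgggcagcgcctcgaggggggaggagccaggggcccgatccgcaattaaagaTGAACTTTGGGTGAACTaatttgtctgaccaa
A match describes these letters only and is no evidence of binding.

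Cyp26a1 and Cyp26b1 encode cytochrome P450 enzymes that break down retinoic acid, and both genes are known to be induced by it. Cyp26a1 was at -0.05, -0.34, -0.14 and 0.03 in sWAT and at 0.24, 0.10, 0.02 and 0.08 in BAT, which overlapped. The difference of Cyp26a1 was 0.23 ± 0.12 (95% interval -0.06 to 0.53, adjusted p = 0.165), or 0.20 and not called for BAT replicate 4 alone. Cyp26b1 was at 0.23, 0.59, 0.11 and 0.82 in sWAT and at -0.26, -0.24, -0.14 and -0.02 in BAT, with no overlap. Cyp26b1 was lower in BAT, with a difference of -0.60 ± 0.14 (adjusted p = 0.016), and was called in 10 of 16 alternatives. It lost the call without replicate 2 or replicate 4 (both -0.52) and with the first arrays alone (-0.47, adjusted p = 0.080). The methods' t-test over 4 pairs (adjusted p = 0.082) and the limma fit with scaling to 3' Gapdh and Actb (adjusted p = 0.213) did not call it either. For BAT replicate 4 alone it was -0.45, not called. The lower values in BAT went with lower B cell, T cell and lymph node stroma markers. Most white adipocyte, progenitor and fibroblast, and macrophage and dendritic cell markers were lower in BAT too. The part of all these cells was not tested.

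**Figure D4:**
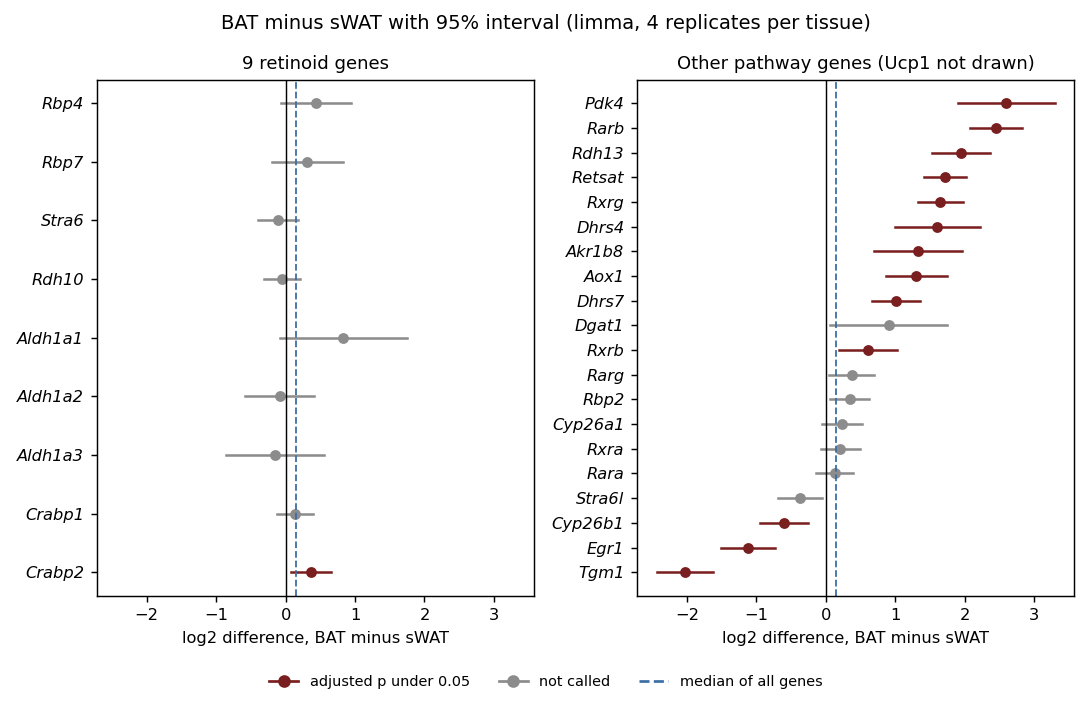
Log2 difference BAT minus sWAT with its 95% interval (horizontal axis) of the 9 retinoid genes (left) and of the other named pathway genes except Ucp1 (right), dark red where the adjusted p was under 0.05 and grey where not, with the median of all genes as a dashed line. Of the 9 genes only Crabp2 is dark red, at 0.37, while Pdk4 and Rarb on the right lie at 2.60 and 2.46.

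Of the other dehydrogenases and reductases acting on retinol, retinaldehyde and related compounds, 8 of 24 were higher in BAT and 1 was lower. These shares were 33.3% and 4.17%, beside 21.0% and 17.5% of all genes. Rdh13, a mitochondrial member of the retinol dehydrogenase family, was at -0.65, -0.47, -0.86 and -0.76 in sWAT and at 1.36, 1.73, 1.39 and 0.58 in BAT. Rdh13 was 1.95 ± 0.18 higher in BAT, with an adjusted p of 0.00027, and BAT replicate 4 was the lowest of its tissue. Dhrs4, a peroxisomal reductase of retinaldehyde, was 1.61 ± 0.26 higher. It was not called by limma with the second arrays (0.98, adjusted p = 0.055) or by the methods' t-test over 4 pairs (adjusted p = 0.074). The aldo-keto reductase gene Akr1b8 (1.34 ± 0.27), the aldehyde oxidase gene Aox1 (1.30 ± 0.19) and Dhrs7 (1.01 ± 0.15) were also higher in BAT. For BAT replicate 4 alone Rdh13 (1.27), Dhrs4 (1.93) and Dhrs7 (0.69) were called and Aox1 (0.86) and Akr1b8 (1.06) were not. The 3 probe sets of Dhrs7 ranged from 0.27 to 2.04. In Aox1 the tissues overlapped, since sWAT replicate 2 was at 0.05 and BAT replicate 4 at 0.05.

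In carotenoid and retinyl ester handling 4 of 11 genes were higher in BAT and 1 was lower. These shares were 36.4% and 9.09%, beside 21.0% and 17.5% of all genes. Retsat, which saturates retinol to dihydroretinol, was at -0.84, -0.76, -0.61 and -0.90 in sWAT and at 0.66, 1.25, 1.07 and 0.80 in BAT. Retsat was 1.72 ± 0.13 higher, or 3.29-fold, with an adjusted p of 0.00014, and its probe sets gave 1.71 and 1.73. For BAT replicate 4 alone Retsat was called at 1.57. Dgat1, which can esterify retinol besides making triglyceride, differed by 0.91 ± 0.36 and was not called (adjusted p = 0.083), with probe sets at 0.30 and 1.52. Dgat1 ran from 0.051 with the second arrays to 1.76 with the first, was 0.40 without replicate 3 and 0.50 for BAT replicate 4 alone, and was called in 3 of 16 alternatives, among them that without the arrays of low 5' signal (adjusted p = 0.024). Of the 5 other carriers and uptake genes 0 were called by limma, and 2 had an unadjusted p under 0.05. The largest differences there were -0.38 ± 0.13 for Stra6l, a receptor related in name and role to Stra6, and 0.34 ± 0.12 for Rbp2, the intestinal cytosolic retinol carrier. Without the replicate block both were called, Stra6l with an adjusted p of 0.028 and Rbp2 with 0.014. For BAT replicate 4 alone they were at -0.49 and 0.32, not called.

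**Figure D5:**
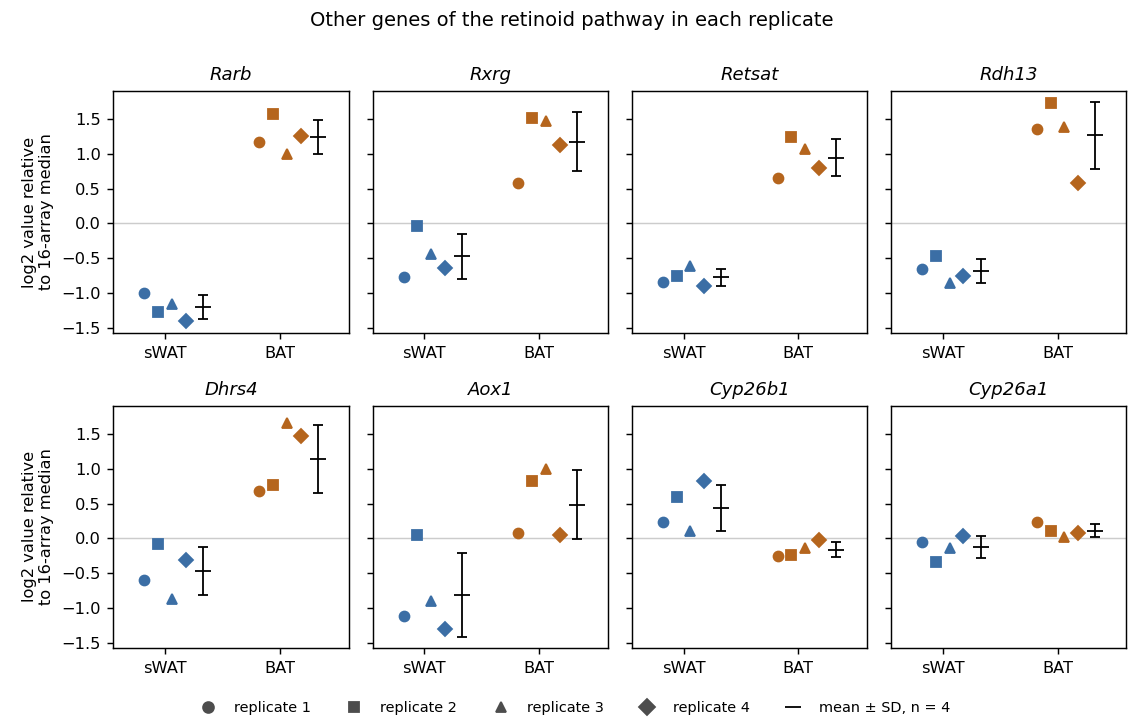
Log2 value relative to the 16-array median (vertical axis) of 8 other retinoid pathway genes in replicates 1 to 4 of sWAT (blue) and BAT (brown), with the mean and SD of 4 replicates as a bar. The tissues do not overlap for Rarb, Rxrg, Retsat, Rdh13, Dhrs4 and Cyp26b1, and they overlap for Aox1 and Cyp26a1.

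Among 19 genes listed for a response to retinoic acid in some cell type, 5 were higher in BAT and 3 were lower. The direction of that response can differ between cell types, and in fat it is not known from these data. These shares, 26.3% and 15.8%, were near the 21.0% and 17.5% of all genes. Ucp1, the uncoupling protein of brown fat and also among the brown adipocyte markers above, was 7.58 ± 0.49 higher. Pdk4, a kinase that inhibits pyruvate dehydrogenase, was 2.60 ± 0.29 higher. Tgm1, a transglutaminase best known from keratinocytes, was lower in BAT with a difference of -2.03 ± 0.17, and so was the immediate early gene Egr1 with -1.12 ± 0.16. For BAT replicate 4 alone all of these were called, Ucp1 at 6.33, Pdk4 at 3.13, Tgm1 at -1.94 and Egr1 at -1.43. Rarb and Cyp26b1, counted in this list too, ran in opposite directions. The muscle fibre markers and 4 of 8 adipocyte markers given above were likewise higher in BAT, and the lymphoid markers lower. The part of these cells in the pathway values was not tested.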

How the data were processed

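RNA of sWAT and BAT was hybridised by the authors to 16 Affymetrix mouse genome arrays. The deposited log2 values were made by the authors with RMA and quantile normalization in GeneSpring GX 12.1, and centred per probe set on the median of the samples. In the table that median was 0 for every probe set. Such values carry no signal level, so background and depth of single arrays are unknown, and precision is limited by how many arrays there are. The labels name Trizol for the RNA and the methods another kit.

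The arrays of a replicate, labelled biological and technical, were averaged, as were a gene's single-symbol probe sets (34958 of 45101, for 18194 genes; 932 named several genes and 9211 none). BAT minus sWAT was fitted in limma 3.58.1 (R 4.3.3) and blocked by replicate number, as the methods use a paired test. The sex-linked genes do not bear out that pairing for BAT replicates 1 to 3, and the fit without the block is given below. In the blocked fit, errors and p-values measure the spread of the BAT minus sWAT difference among the replicate numbers. That spread is drawn by limma towards that of all genes. Permutation tests used scipy 1.17.1 and figures matplotlib 3.10.9. The scripts were tested on simulated data. Named were the 9 genes and, of the other pathway genes, those called with a difference of at least 1 (log2), the RAR, RXR and Cyp26 genes and the 2 with the largest difference per list, and for each of the 9 the closest of its 3 most similar genes by Pearson r, with all 3 for some. The 9 genes and all lists were chosen with earlier results of these data known. Alternatives were the fit without the block, first or second arrays, the methods' t-test, leaving out each replicate, the 2 arrays of low 5' signal or BAT replicates 1 to 3, other scalings, a filter on low spread and other gene summaries.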

Additional observations from a re-analysis of the deposited data

Results flagged for a closer look

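Ucp1 was at 2.75 in BAT replicate 4, well below the other 3 BAT replicates at 4.33 to 4.53, a gap of 0.89 of the range of the tissue. It stayed above every sWAT replicate, of which the highest was at -2.88. About 1 in 20 such groups of 4 would be marked by chance. It is the same replicate in which Aldh1a2 and Aldh1a3 were highest, and the only BAT replicate with low Xist (-0.26).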

How the results depend on the processing

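The count of 9 retinoid genes called higher in BAT was 1 as reported. The share of all genes called in either direction, 38.4% as reported, stands in brackets for each alternative. The count was 0 with the second arrays alone (35.6%), with the methods' t-test over 4 replicate pairs (19.6%) and with each array scaled to its median (36.1%). It was also 0 with the filter on spread (70.1% of the genes kept), which kept 5 of the 9 and not Crabp2. The median over probe sets (37.1%) and probe sets of the plain type alone (36.1%) gave 0 too. The count was 2 without the arrays of low 5' signal (49.2%), and 0 to 1 when each replicate number was left out (25.4% to 37.2%). The count called lower, 0 as reported, was 0 to 1 when each replicate number was left out. The count of probe sets called was 0 as reported, where 32.4% of all probe sets were called. It was 1 without the block (40.9%), with the first arrays alone (27.3%) and with the t-test over 8 pairs of single arrays (45.7%). It was also 1 without the arrays of low 5' signal (42.4%) and with scaling to 3' Gapdh and Actb (19.8%). Leaving out each replicate number gave 0 to 1 (21.6% to 31.2%). For the pathway genes, 19 higher and 9 lower became 9 and 3 with the t-test over 4 pairs (which called 19.6% of all genes, against 38.4% as reported), 29 and 14 with that over 8 pairs (53.5%), and 12 and 4 for BAT replicate 4 alone (19.8%). The lower count was 5 with the second arrays and 3 with scaling to 3' Gapdh and Actb, and leaving out each replicate number gave 14 to 21 higher and 5 to 9 lower.

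Directions turned as follows. Aldh1a2 was 0.10 with the second arrays and 0.54 for BAT replicate 4 alone, and -0.36 to 0.018 when each replicate number was left out (0.0014 without number 2). Aldh1a3 was 0.83 for BAT replicate 4 alone, 0.21 as the median of its probe sets, and -0.56 to 0.063 when each number was left out. Its probe set 1448789_at was 1.13 for BAT replicate 4 alone. Rdh10 was 0.20 with the second arrays, and its probe set 1426968_a_at was -0.23 with the first arrays and -0.22 for BAT replicate 4 alone. Among the pairs of genes, whose alternatives were chosen after seeing the data, the shift of Aldh1a2 minus Aldh1a3 was -0.042 with the first arrays and -0.044 to 0.21 when each number was left out, and that of Rbp4 minus Rbp7 was -0.10 with the second arrays and -0.093 to 0.33 when each number was left out. The cause was not tested. Of the values of single named genes under these alternatives, 410 kept direction and call, 19 gained the call, 28 lost it and 8 turned the direction. Of those of single probe sets, 147 kept both, 7 gained the call and 7 turned the direction.

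The same replicate number in both tissues was not shown to pair samples. For BAT replicates 1 to 3 Xist read 5.74 to 6.36, where all sWAT replicates read -0.27 to -0.11. Pairing with any sWAT replicate is thus not borne out for them. The deviations of same-numbered samples correlated at -0.34 to 0.26 over genes, against -0.30 to 0.52 for other numbers. Without the block, 1 of the 9 genes was higher and 0 lower, 25 pathway genes were higher and 13 lower, and 47.1% of all genes were called. Rarg, Rbp2, Stra6l and the Crabp2 probe set gained the call. Over all alternatives that share ran from 19.6% with the t-test over 4 pairs to 70.1% with the filter on spread. Centred values set the main limit, since they do not show which probe sets were without signal. A small difference can thus not be assigned to an expressed gene. Over all genes the median difference was 0.15. Among 11 skin and hair follicle markers it was 0.34, with 4 called higher in BAT and 0 lower.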
